A study of Mus musculus with 23 samples.

Results

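The genes described here encode the extracellular matrix of glial cells: the collagen chains, the laminin chains, tenascin-C and tenascin-R, the lecticans versican, brevican and neurocan, fibronectin, and fibulins 1, 2 and 5. They were chosen by symbol (the Col and Lam chain patterns plus Tnc, Tnr, Vcan, Bcan, Ncan, Fn1, Fbln1, Fbln2 and Fbln5), and 6 cartilage collagens of types II, IX and XI were left out. The choice was made with earlier results of these data known. The rule found 58 genes among the 35385 gene symbols of the series. They comprise 8 fibrillar collagens, 6 collagens of basement membranes, 6 of type VI, 6 FACIT collagens (which sit on the surface of other fibrils), 4 transmembrane collagens, 2 multiplexins, 6 other collagens, 11 laminins, 2 tenascins, 3 lecticans and 4 fibronectin or fibulin genes.

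Poly(A) RNA was sequenced in 23 libraries of mouse oligodendrocyte lineage cells. Oligodendrocyte progenitor cells (OPCs) had been grown from the epiblast stem cell lines EpiSC5 (strain 129SvEv) and 129O1 (strain 129S1/SvImJ) and purified for CD140a and NG2, on plates coated with poly(L-ornithine) and laminin protein. A first set held OPCs and O1-positive oligodendrocytes (OLs), both sorted with magnetic beads, with 3 libraries each. A second set of 17 libraries carried a lentiviral CRISPRv2 vector with either a non-targeting guide (control) or 1 of 2 guides against Sox6, the gene of a SOX transcription factor. The vector and the selection in puromycin (500 ng/mL for 96 hours) were common to all 17, controls included. These cells were kept for 60 hours either in OPC growth medium with PDGFA and FGF2 (OPC groups) or in a medium that permits differentiation but lacks thyroid hormone (OL groups, which were not sorted). Control and guide 2 had 3 libraries at each stage, and guide 1 had 2 OPC and 3 OL libraries. The labels state that control and targeted cells came from 1 starting batch of OPCs and were selected as a population. No label ties a library to a separate culture, so p-values measure the spread between these libraries, which may be technical.

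The matrix of the brain differs from that of other organs. It holds little fibrillar collagen and is built mainly on hyaluronan, to which the lecticans bind, with tenascins cross-linking the lecticans. Tenascin-C is typical of immature glia, while tenascin-R is made by oligodendrocytes and gathers at nodes of Ranvier and in the nets around neurons. Laminins (trimers of an alpha, a beta and a gamma chain) and type IV collagen form basement membranes, and laminin receptors on oligodendrocytes take part in myelination.

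The stretches of DNA just before the start sites of Tnr, Tnc, Fbln2 and Col28a1 are shown because each of these genes changed after SOX6 targeting in OPCs, the first pair downward and the second pair upward. Each sequence is 250 bases long, ends at the base before the RefSeq start site of build GRCm38.p6, and is written 5′ to 3′ on the strand of the gene. Capitals mark the 6-base motif ACAAAG, 1 of 2 motifs of the kind SOX proteins bind that were searched on both strands (the other was AACAAT).
Tnr (chr1:159523519-159523768, plus strand): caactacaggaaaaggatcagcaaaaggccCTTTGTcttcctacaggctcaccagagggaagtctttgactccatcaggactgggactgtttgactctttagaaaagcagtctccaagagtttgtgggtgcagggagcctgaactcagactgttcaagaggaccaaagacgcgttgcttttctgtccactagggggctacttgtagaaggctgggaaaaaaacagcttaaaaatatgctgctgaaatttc
Tnc (chr4:64047016-64047265, minus strand): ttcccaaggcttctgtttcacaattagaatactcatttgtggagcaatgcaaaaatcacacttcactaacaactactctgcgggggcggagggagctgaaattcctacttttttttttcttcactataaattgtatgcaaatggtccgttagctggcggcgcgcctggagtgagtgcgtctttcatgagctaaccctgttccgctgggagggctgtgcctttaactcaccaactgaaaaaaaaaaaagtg
Fbln2 (chr6:91212514-91212763, plus strand): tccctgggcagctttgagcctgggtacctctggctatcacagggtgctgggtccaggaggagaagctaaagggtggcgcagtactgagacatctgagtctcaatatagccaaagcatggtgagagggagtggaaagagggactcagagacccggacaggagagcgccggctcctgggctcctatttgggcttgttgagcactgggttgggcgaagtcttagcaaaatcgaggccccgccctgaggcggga
Col28a1 (chr6:8192618-8192867, minus strand): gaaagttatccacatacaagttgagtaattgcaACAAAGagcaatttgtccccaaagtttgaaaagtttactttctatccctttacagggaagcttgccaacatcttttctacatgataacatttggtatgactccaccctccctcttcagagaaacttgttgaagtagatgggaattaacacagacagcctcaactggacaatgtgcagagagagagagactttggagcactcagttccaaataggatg
The Tnr stretch holds ACAAAG on the opposite strand (printed as CTTTGT), beginning 220 bases before the start site, and the Col28a1 stretch holds it on the strand of the gene, 217 bases before the start site. Neither motif was found in the stretches of Tnc and Fbln2. In the GENCODE annotation the Fbln2 gene body is chr6:91212455-91272540, so the stretch shown for Fbln2 lies within it. The motifs are common: of 32851 RefSeq windows from 250 bases before to 50 bases after a start site, 10.7% held AACAAT, 18.7% held ACAAAG and 27.0% held either. Of 50 such windows, from the 44 matrix genes with an entry, 3, 6 and 8 held them. A match describes letters, and binding was not measured here.

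In the SOX6 experiment, estimated counts per library totalled 13967438 to 16958611 for OPCs and 13124580 to 18551822 for OLs. The depth behind the sorted libraries is unknown. Sox6 itself, the targeted gene, fell in targeted OPCs from 200.3 ± 33.1 CPM (counts scaled to a common library total) in controls (SD, n = 3) to 82.0 ± 10.0 with guide 1 (n = 2) and 76.4 ± 9.59 with guide 2 (n = 3). In OLs it was 413 ± 25.8 CPM in controls, 218 ± 54.8 with guide 1 and 253 ± 2.10 with guide 2 (n = 3 each). Markers of cell types that make much collagen were scarce. The 14 fibroblast or pericyte markers summed to between 48.8 and 68.2 CPM in the SOX6 libraries, and the 8 endothelial markers to at most 10.5 CPM. Pdgfrb was listed at 0 in every group, as were some matrix genes described below. Whether its transcript was absent was not tested. The sum of 13 astrocyte markers was 1632 to 1972 CPM in OPC libraries and 7014 to 9160 CPM in OL libraries (586 to 656 and 2095 to 4167 on the TPM scale, which allows for transcript length, in sorted OPCs and OLs). The sum of 9 oligodendrocyte markers was 132 to 232 CPM in OPC libraries, 2035 to 2993 CPM in OL libraries, and 26254 to 26510 TPM in sorted OLs (sorted OPCs had 48.6 to 76.8 TPM). Of the astrocyte markers 11 of 12 tested were higher in control OLs than in control OPCs, and of the oligodendrocyte markers 7 of 7. Of all genes in that comparison 26.8% were higher and 26.9% lower. The OPC markers did not fall as a list: 4 of 7 were higher and 3 lower in control OLs. Their sum was 9894 to 10793 CPM in control OPCs and 12249 to 12422 CPM in control OLs. The sum of 10 neuron markers was 1243 to 1538 CPM in control OPCs and 2398 to 2510 CPM in control OLs, with 5 of 9 tested higher. Of 7 fibroblast or pericyte markers tested, 2 were higher and 3 lower in control OLs. The part of these markers in the matrix results was not tested.

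One library stood apart. In guide 1 OL library B, genes with long transcripts were low. The ratio of its values to the mean of the other libraries of its group had a Spearman correlation of -0.582 with transcript length over 9817 genes. The correlation was 0.505 and 0.559 for the other 2 libraries of that group, whose reference includes library B. Matrix genes have long transcripts (17 of the 19 at a mean of 5 CPM or more lay above the median gene), so results for OLs are given with and without that library. Among control OPC libraries the same correlation was -0.39, -0.0013 and 0.409.

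Expression was concentrated in few genes. By the highest mean of any group on the TPM scale, 5 of the 58 genes reached 100 TPM (Tnr, Ncan, Tnc, Vcan and Col20a1), 15 reached 10 TPM, and 29 stayed under 1 TPM in every group. Among those 29 were the interstitial chains Col1a1 (highest group mean 0.609 TPM), Col1a2 (0.639 TPM) and Col3a1 (0.268 TPM), and Lama2 (0.334 TPM), which encodes the laminin alpha chain best known from muscle and myelinating glia. Sorted OPCs were led by Ncan with 153 ± 19.8 TPM, Tnc with 125 ± 10.6 TPM and Fbln1 with 76.4 ± 11.7 TPM (SD, n = 3). Sorted OLs were led by Tnr, whose 613 ± 31.9 TPM made up 56.8% of the summed TPM of the 58 genes, followed by Vcan (129 ± 4.40 TPM) and Col20a1 (126 ± 11.97 TPM). Cultured control OLs were led by Ncan (309 ± 12.3 TPM), with Vcan at 125 ± 3.69 TPM and Tnr at 107 ± 1.78 TPM. The summed TPM of the 58 genes was 663 ± 34.3 in sorted OPCs, 1079 ± 53.8 in sorted OLs, 779 ± 90.4 in control OPCs and 812 ± 9.91 in control OLs.

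**Figure D1:**
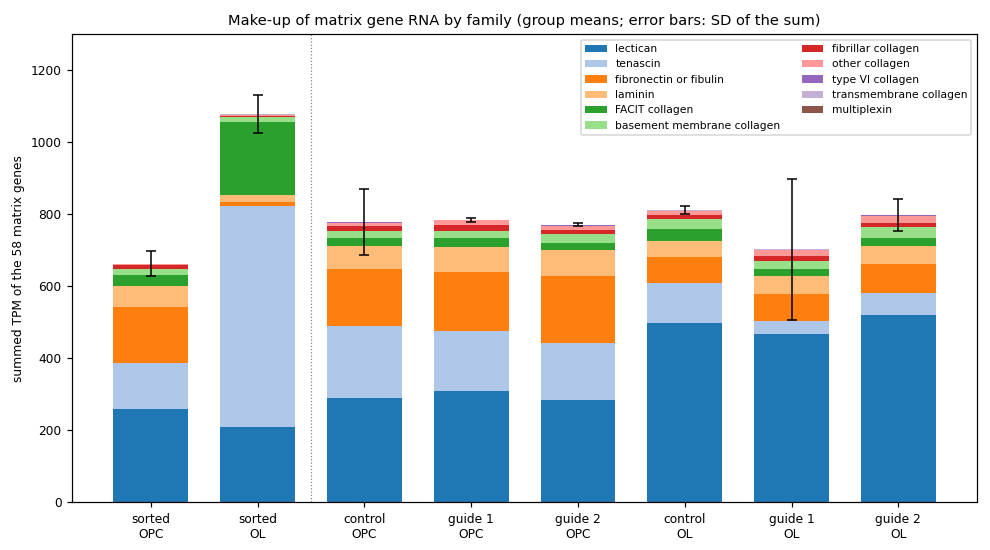
Summed TPM of the 58 matrix genes in each of 8 groups, stacked by gene family from group means; error bars are the SD of the sum over libraries, and the dotted line separates the sorted cells from the SOX6 experiment, whose tables were normalized separately. Tenascins take 615 TPM in sorted OLs and lecticans 499 TPM in control OLs.

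The first question was how these genes differ between OPCs and OLs, in sorted cells and in the control cultures. In sorted cells 23 of the 58 genes passed the filter on low TPM, and 7 were higher and 12 lower in OLs (limma, adjusted p under 0.05), where 60.2% of all 11900 genes tested were called, 26.3% higher and 33.8% lower. The filter asked for 1 TPM in 3 of 6 libraries, and 6 of these 19 reached it in 1 stage alone: Col20a1 and Col4a3 in OLs, and Fbln2, Lama1, Col28a1 and Col5a3 in OPCs. A gene that passes that way has to differ, so these 6 add nothing to the count, and of the other 17 genes 5 were higher and 8 lower. Without sorted OL library B or C only 3 were called higher, in part because Col20a1 and Col4a3 then no longer passed the filter. In culture 31 passed the filter on low counts, and 11 were higher and 11 lower in control OLs (edgeR), where 53.7% of 12868 genes were called, 26.8% higher and 26.9% lower. Here Col4a3 (higher) and Lamb1 (lower) reached the count minimum in 1 stage alone, and of the other 29 genes 10 were higher and 10 lower. In culture the stage and the deposited table cannot be told apart, since each stage has its own table. In these bulk samples fewer cells of a type and less RNA per cell cannot be told apart either.

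The 2 tenascins changed places. Tnr stood at 1.87, 1.32 and 2.95 TPM in the sorted OPC libraries and at 590.2, 649.7 and 600.2 TPM in the sorted OL libraries. In culture it stood at 21.2, 26.7 and 28.2 CPM in control OPCs, and at 899.8, 898 and 883 CPM in control OLs. The libraries of the 2 stages did not overlap in either set, and the log2 change was 7.69 ± 0.20 (SE) on the log2(TPM + 1) scale in sorted cells (limma, adjusted p = 3.25e-06) and 5.16 ± 0.11 in culture (edgeR, adjusted p = 1.1e-07). Tnc ran the other way, from 130.4, 131.3 and 112 TPM in sorted OPCs to 1.17, 1.15 and 2.14 TPM in sorted OLs. In culture it went from 1303, 1259 and 1378 CPM to 19.02, 19.14 and 16.4 CPM. Its log2 change was -5.68 ± 0.18 in sorted cells (limma, adjusted p = 4.27e-06) and -6.15 ± 0.09 in culture (edgeR, adjusted p = 3.61e-08), the largest fitted fall among the matrix genes tested in each comparison. The rank of Tnc in sorted cells depends on the 1 TPM added before the log. Fbln2 there fell from a mean of 67.8 to 0.579 TPM. The gene bodies lie at chr1:159523769-159931729 (Tnr, plus strand) and chr4:63959785-64047015 (Tnc, minus strand) of GRCm38. The library kit does not mark strand, and exons of Tnr and Tnc share 443 and 176 bases with exons of genes on the opposite strand (Gm38039 and 8030451A03Rik), whose reads cannot be told apart from theirs.

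**Figure D2:**
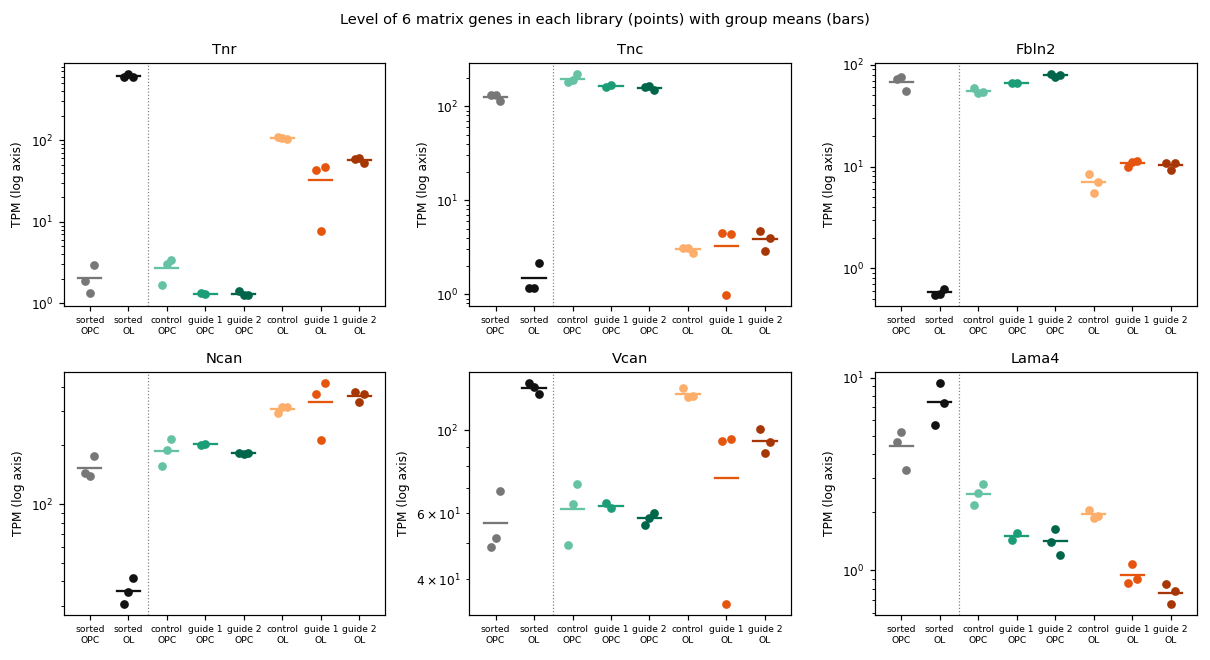
TPM on a log axis of Tnr, Tnc, Fbln2, Ncan, Vcan and Lama4 in each library (points) with group means (bars); the dotted line separates the sorted cells from the SOX6 experiment. Tnr rises and Tnc and Fbln2 fall from OPCs to OLs in both sets, Ncan falls in sorted OLs and rises in cultured control OLs, and guide 1 OL has 1 library below the other 2 for Tnr, Tnc, Ncan and Vcan.

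The 3 lecticans did not move together. Vcan, whose product versican carries chondroitin sulfate at nodes of Ranvier, was higher in OLs in both sets: 48.9, 51.4 and 68.9 TPM against 133, 130.01 and 125 TPM in sorted cells (log2 difference 1.20 ± 0.15), and 372, 424 and 474 CPM against 829, 789.7 and 770.0 CPM in culture (log2 fold change 0.93 ± 0.09). Ncan, which encodes neurocan, was lower in sorted OLs (30.7, 35.1 and 41.7 TPM) than in sorted OPCs (144, 139.8 and 176 TPM), a log2 difference of -2.07 ± 0.15 (limma, adjusted p = 8.65e-05). In culture the order was the opposite, with 1140.4, 1291 and 1373 CPM in OPCs of the control group and 1827, 1962 and 1906 CPM in its OLs (log2 fold change 0.61 ± 0.08, edgeR, adjusted p = 0.000451). Bcan, for brevican, in sorted cells stood at 49.5 ± 6.92 TPM (OPC) and 44.4 ± 3.28 TPM (OL), a log2 difference of -0.15 ± 0.13 that did not pass the test (limma, adjusted p = 0.366), and it rose by 0.38 ± 0.10 in culture.

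Fibulins 1 and 2 were higher in OPCs than in OLs in both sets. Fbln2, an adaptor of elastic fibres and basement membranes, fell from 71.8, 76.2 and 55.3 TPM in sorted OPCs to 0.551, 0.554 and 0.632 TPM in sorted OLs, and from 187, 172 and 176 CPM in control OPCs to 20.4, 20.7 and 19.7 CPM in control OLs. The log2 changes were -5.43 ± 0.14 and -3.11 ± 0.06. Fbln1 fell from 76.4 ± 11.7 to 3.19 ± 0.91 TPM in sorted cells and from 194 ± 5.48 to 85.4 ± 10.1 CPM in culture, log2 changes of -4.22 and -1.16. Fbln5 stayed under 1 TPM in every group. Fn1, for fibronectin, was 9.19, 14.2 and 12.02 TPM in sorted OPCs and 5.24, 6.68 and 6.94 TPM in sorted OLs, a fall of 0.80 on the log2(TPM + 1) scale. In culture it rose from 44.1, 26.5 and 36.8 CPM to 74.3, 81.7 and 88.2 CPM (log2 fold change 1.21 ± 0.17), and the libraries of the 2 stages did not overlap in either set. Its exons share 292 bases with those of Apol7d on the opposite strand.

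Of the laminin chains, 5 of 6 tested were lower in OLs in culture, where 26.9% of all genes were lower, and of 5 tested in sorted cells 3 were lower and 1 higher (33.8% and 26.3% of all genes). Lamb1 in culture and Lama1 in sorted cells, both lower, passed the filter through 1 stage alone. They add nothing to those counts. The culture count rests in part on calls near the threshold: those of Lama1 and Lamb3 were lost in 9 of 12 alternatives each (edgeR, adjusted p up to 0.452 and 0.555) and that of Lama4 in 3 of 12 (up to 0.0536). Lamb2 (25.9 ± 5.33 TPM) and Lama5 (24.0 ± 3.31 TPM, SD, n = 3) had the highest levels per length in sorted OPCs and lay within each other's spread. Lama5 was at 25.7, 26.2 and 20.2 TPM there against 1.79, 2.22 and 2.66 TPM in sorted OLs. Its counts in culture were 275, 318 and 369.7 CPM against 125, 128 and 140.2 CPM, and the log2 changes were -2.96 ± 0.15 and -1.27 ± 0.12. Lamb2 fell by 1.74 on the log2(TPM + 1) scale in sorted cells, while in culture it stood at 97.5 ± 3.77 CPM in OPC controls and 89.8 ± 5.36 CPM in OL controls (log2 fold change -0.09, edgeR, adjusted p = 0.279). Lama4, the alpha chain of vessel laminins, was higher in sorted OLs (7.47 ± 1.84 TPM) than in sorted OPCs (4.39 ± 0.971 TPM) and lower in cultured control OLs (10.0 ± 0.566 CPM) than in control OPCs (14.1 ± 0.769 CPM). Lamb1 had the largest fitted fall among laminins in culture (-4.85), but its control OPC libraries ranged from 1.16 to 12.1 CPM, and with an offset for transcript length the change was -0.84 (edgeR, adjusted p = 0.675, the highest of 12 alternatives, whose lowest was 1.34e-06).

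The most abundant collagens of the series were 2 FACIT collagens in sorted OLs. Col20a1 stood at 0.469, 0.322 and 0.647 TPM in sorted OPCs and at 113, 134 and 133 TPM in sorted OLs, a log2 difference of 6.43 ± 0.13 (limma, adjusted p = 1.27e-06). In the control cultures it rose as well, with a log2 fold change of 1.45 ± 0.26, from 0.796 ± 0.392 to 1.94 ± 0.183 TPM. Col16a1 was 18.4, 21.5 and 33.8 TPM in sorted OPCs and 70.9, 75.3 and 72.6 TPM in sorted OLs (log2 difference 1.58 ± 0.22), and in culture 44.9 ± 8.43 CPM in OPCs and 41.9 ± 6.66 CPM in OLs, where it did not pass the test (edgeR, adjusted p = 0.705). The cultured values depend on the unit: in TPM they were 17.4 to 20.2 in control OPCs and 24.4 to 32.4 in control OLs. The cultured TPM values were not tested. Sorted and cultured values come from tables normalized separately, so the difference between the sets was not tested.

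The type IV chains Col4a1 and Col4a3 behaved differently. Col4a3, a chain best known from kidney basement membrane, was near 0 in OPCs of both sets and reached 3.52 ± 1.31 TPM in sorted OLs and 7.68 ± 0.949 CPM in control OLs (log2 changes 2.10 and 5.55). Its exons share 563 bases with those of C430014B12Rik on the opposite strand. Col4a1 fell from 12.2 ± 1.24 to 3.04 ± 1.09 TPM in sorted cells (log2 difference -1.74 ± 0.22) and in culture stood at 89.9 ± 1.62 CPM (OPC) and 97.3 ± 4.51 CPM (OL) (edgeR, adjusted p = 0.0775). Among fibrillar collagens Col5a2 was the most abundant and was lower in OLs of both sets, by 1.80 and 0.28 on the log2 scale, as was Col5a3, by 0.92 and 0.84. Col27a1 rose in culture from 2.93 ± 0.715 to 9.22 ± 1.11 CPM. Col28a1, a short collagen with von Willebrand factor A domains known from peripheral glia, fell from 2.44 ± 1.02 to 0.367 ± 0.250 TPM in sorted cells (log2 difference -1.31) and in culture stood at 21.7 ± 2.82 CPM (OPC) and 24.4 ± 3.44 CPM (OL) (edgeR, adjusted p = 0.305).

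Of the 22 genes tested in both sets, 11 were called in both with the same direction, 4 in both with opposite directions, and 7 in at most 1. The 11 were Tnr, Vcan, Col20a1 and Col4a3, which were higher in OLs, and Tnc, Fbln1, Fbln2, Lama1, Lama5, Col5a2 and Col5a3, which were lower. Of these, Col20a1, Col4a3, Fbln2, Lama1 and Col5a3 passed the sorted filter through 1 stage alone, and the culture calls of Lama1 and Col5a2 were lost in 9 and 3 of 12 alternatives (edgeR, adjusted p up to 0.452 and 0.0682). The 4 were Ncan, Fn1, Lama4 and Col22a1.

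**Figure D3:**
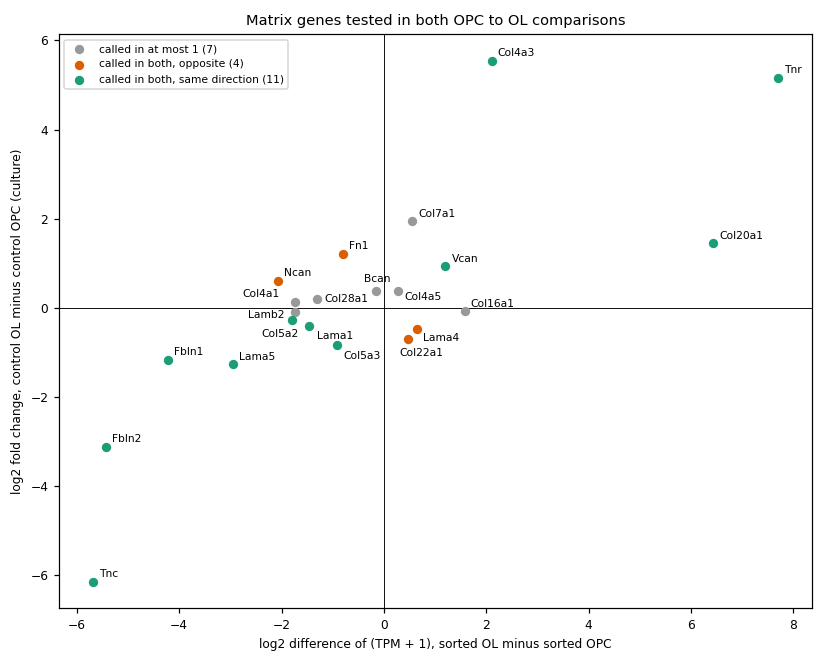
Change from OPC to OL of the 22 matrix genes tested in both sets, with the log2 difference of TPM + 1 in sorted cells on the horizontal axis and the log2 fold change in control cultures on the vertical axis; colours give whether a gene was called in both sets with the same direction (11), in both with opposite directions (4) or in at most 1 (7). Tnr lies at the upper right with 7.69 and 5.16, and Tnc at the lower left with -5.68 and -6.15.

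The second question was how the genes respond to the targeting of Sox6. In OPCs, Fbln2 and Col28a1 were higher and Tnr, Lama4 and Tnc lower in targeted than in control cells (5 of the 35 genes tested, 14.3%, where 3.59% of 13358 genes were called, 1.95% higher and 1.63% lower). Fbln2, Tnr and Tnc are in the rule by name, and the genes were chosen with earlier results of these data known. The shares called, here and in OLs, are therefore a description and no independent evidence about matrix genes. The median log2 fold change of the 35 was -0.03, against -0.0049 for all genes, and 14 of them had an unadjusted p under 0.05. In OLs, Col28a1 and Fbln2 were higher and Lama4 and Col27a1 lower (4 of 33 tested, 12.1%, where 6.5% of 13447 genes were called, 3.13% higher and 3.37% lower). The median was 0.04, against -0.00078 for all genes. Without guide 1 OL library B the calls in OLs came to 8 higher and 5 lower of 34 tested, where 16.9% of 13810 genes were called, 8.32% higher and 8.6% lower. The OPC to OL comparison in culture used the same control libraries. Oligodendrocyte markers moved with targeting too: their sum was 132 to 168 CPM in control and 192 to 232 CPM in targeted OPCs, and 2035 to 2226 CPM in control and 2530.2 to 2993 CPM in targeted OLs. Of these markers 3 of 6 tested were higher in targeted OPCs and 5 of 8 in targeted OLs. OPC markers were lower in 2 of 7 cases in targeted OPCs and in 4 of 7 in targeted OLs. Neuron markers had 1 of 10 higher and 3 lower in targeted OPCs and 3 of 9 lower in targeted OLs, where their sum was 2398 to 2510 CPM in controls and 1080 (guide 1) to 2243 CPM in targeted libraries. Astrocyte markers had 3 of 12 higher and 1 lower in targeted OPCs and 1 of 12 higher in targeted OLs, with sums of 7014 to 7312 CPM in control and 7868 to 9160 CPM in targeted OLs. The part of these 4 lists in the matrix results was not tested.

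Tnr was lower in every targeted library of both stages than in any control of that stage. Its OPC values of 21.2, 26.7 and 28.2 CPM in controls compared with 12.2 and 11.7 CPM for guide 1 and 11.9, 14.8 and 11.6 CPM for guide 2, a log2 fold change of -1.02 ± 0.13 (edgeR, adjusted p = 0.00522). In OLs, where controls stood at 883 to 899.8 CPM, guide 1 gave 392, 101 and 416 CPM and guide 2 gave 505, 483 and 492 CPM. The value of 101 CPM is library B. With it the log2 fold change was -1.21 ± 0.34 and did not pass the test (edgeR, adjusted p = 0.0787). Without it the fold change was -1.01 ± 0.03 (adjusted p = 2.71e-07), and the adjusted p over all 17 alternatives ran from 2.71e-07 to 0.372. The OPC call was lost when both stages shared 1 estimate of the spread (adjusted p = 0.172, the highest of 16 alternatives). In control OPCs Tnr was at 2.69 ± 0.880 TPM, so its change there is one between low levels.

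Tnc fell slightly in targeted OPCs, from 1259 to 1378 CPM in controls to 1008 and 1058 CPM with guide 1 and 1072, 1092 and 963 CPM with guide 2. The log2 fold change was -0.32 ± 0.05 (edgeR, adjusted p = 0.0142), with no overlap between targeted and control libraries. That call was lost without either of the 2 guide 1 libraries (adjusted p = 0.0788 and 0.0599) and with both stages in 1 fit (0.749). In OLs, where little Tnc was left, controls had 19.02, 19.14 and 16.4 CPM, guide 1 had 27.2, 8.01 and 27.2 CPM and guide 2 had 28.9, 19.01 and 24.03 CPM. The log2 fold change of 0.30 ± 0.34 did not pass the test (edgeR, adjusted p = 0.725), and without library B, the one at 8.01 CPM, it was 0.48 ± 0.13 (adjusted p = 0.0395).

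Fbln2 was higher in all targeted libraries at both stages. In OPCs the controls had 187, 172 and 176 CPM, guide 1 had 219 and 225 CPM, and guide 2 had 287, 285 and 272 CPM. In OLs the controls had 20.4, 20.7 and 19.7 CPM, guide 1 had 37.4, 34.8 and 43.9 CPM, and guide 2 had 31.2, 32.9 and 33.3 CPM. Groups did not overlap at either stage, and the log2 fold changes were 0.51 ± 0.04 in OPCs (edgeR, adjusted p = 0.000737) and 0.81 ± 0.10 in OLs (0.00159). With an offset for transcript length they were 0.35 and 0.70 and missed the threshold (adjusted p = 0.0526 and 0.0591). Fbln1, the other abundant fibulin, had log2 fold changes of -0.10 ± 0.04 and 0.08 ± 0.10, neither past the test (adjusted p = 0.25 and 0.742). Fn1 had 44.1, 26.5 and 36.8 CPM in control OPCs, 41.6 and 31.4 CPM with guide 1, and 65.7, 72.4 and 64.7 CPM with guide 2. It was called higher with guide 2 alone (log2 fold change 0.93 ± 0.17, edgeR, adjusted p = 0.0351) and not with the mean of both guides (0.50 ± 0.16, adjusted p = 0.147).

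Col28a1 had the largest rise among called matrix genes. Control OPCs had 19.8, 20.3 and 24.9 CPM against 33.3 and 34.1 CPM with guide 1 and 32.0, 30.2 and 30.2 CPM with guide 2. Control OLs had 25.7, 26.9 and 20.4 CPM against 55.8, 45.8 and 58.7 CPM with guide 1 and 51.4, 58.2 and 57.1 CPM with guide 2. No targeted library overlapped the controls, and the log2 fold changes were 0.59 ± 0.09 in OPCs (edgeR, adjusted p = 0.0139) and 1.16 ± 0.13 in OLs (0.000897). The gene lies at chr6:7997808-8192617 of GRCm38, on the minus strand, and its exons overlap no exon of the opposite strand.

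Lama4 was lower after targeting at both stages. It had 13.3, 14.3 and 14.8 CPM in control OPCs, 7.64 and 8.29 CPM with guide 1, and 7.91, 9.17 and 6.65 CPM with guide 2 (log2 fold change -0.81 ± 0.13, edgeR, adjusted p = 0.0152). In OLs the controls had 10.7, 9.70 and 9.68 CPM, guide 1 had 4.43, 2.60 and 4.72 CPM, and guide 2 had 4.35, 3.70 and 4.04 CPM (-1.33 ± 0.20, adjusted p = 0.00506). The groups did not overlap at either stage. Leaving out single libraries moved the adjusted p of Lama4 and Col28a1 in OPCs past the threshold in 3 cases each (control library B and either guide 1 library, at most 0.0778 and 0.0687). The abundant chains Lama5 and Lamb2 had log2 fold changes of 0.15 ± 0.09 and 0.21 ± 0.05 in OPCs and 0.21 ± 0.23 and 0.19 ± 0.12 in OLs, none past the test. Without library B both were called higher in OLs (0.34 ± 0.06 and 0.26 ± 0.06, adjusted p = 0.00378 and 0.0124).

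Col27a1, a fibrillar collagen known from cartilage, had 8.81, 8.37 and 10.5 CPM in control OLs, 6.82, 4.74 and 5.94 CPM with guide 1 and 5.29, 4.72 and 5.27 CPM with guide 2. Its log2 fold change of -0.76 ± 0.17 (edgeR, adjusted p = 0.0303) missed the threshold in 11 of 17 alternatives. Of the lecticans, Ncan and Bcan in OPCs had log2 fold changes of 0.01 ± 0.06 and 0.07 ± 0.10. Vcan in OLs had 829, 789.7 and 770.0 CPM in controls, 583, 321 and 596 CPM with guide 1 and 619, 592 and 585 CPM with guide 2. Every targeted library was below every control, yet the log2 fold change of -0.54 ± 0.17 did not pass the test (edgeR, adjusted p = 0.114), and without library B, the one at 321 CPM, it was -0.43 ± 0.03 (adjusted p = 4.89e-05). Ncan in OLs was 1827 to 1962 CPM in controls and 2281, 1757 and 2622 CPM with guide 1. With guide 2 it was 2329.9, 2210.1 and 2282 CPM, and its log2 fold change of 0.24 ± 0.11 (adjusted p = 0.296) became 0.31 ± 0.05 without library B (adjusted p = 0.00213).

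**Figure D4:**
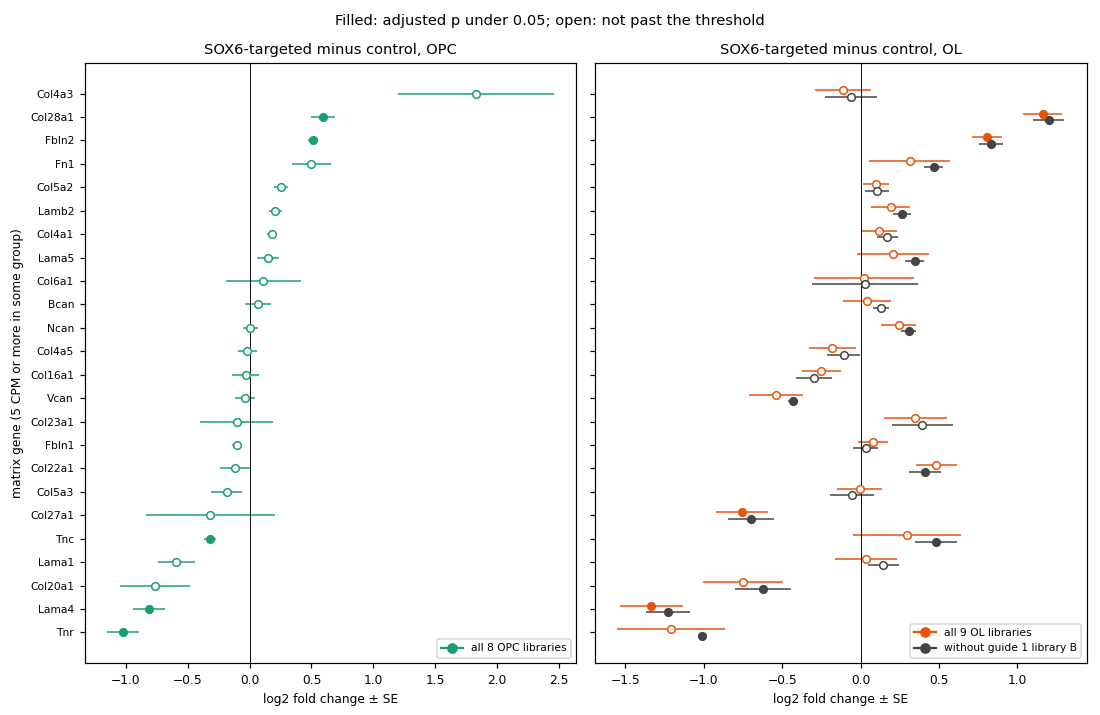
Log2 fold change (points) with its SE (lines) after SOX6 targeting, in OPCs (left) and OLs (right), for the 24 matrix genes that reached a mean of 5 CPM in some group and were tested at both stages; filled points passed an adjusted p of 0.05. In OLs orange points use all libraries and dark points leave out guide 1 library B, without which more genes passed and Tnr lay at -1.01 in place of -1.21.

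A test of the difference between the stages in their response, with all 17 libraries in 1 fit, called 0 of the 38 genes tested by edgeR (7 had an unadjusted p under 0.05, and DESeq2 called 2 higher), where 1.69% of 14352 genes were called, 0.92% higher and 0.773% lower. Col28a1 was nearest among the genes named above, with a difference of 0.59 ± 0.15 (adjusted p = 0.0788). Without guide 1 OL library B, 5 were called higher (Col28a1, Fbln2, Lama1, Ncan and Tnc) and 2 lower (Col4a3 and Vcan) of 37 tested, where 4.46% of 14299 genes were called, 2.68% higher and 1.78% lower. The difference for Tnc was then 0.83 ± 0.14 (adjusted p = 0.00266), against 0.64 ± 0.36 with all libraries (0.567).

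Each guide was also compared with control alone. In OPCs guide 1 called 2 of 35 matrix genes higher (Fbln2 and Col28a1) and 2 lower (Tnr and Tnc), where 2.78% of all genes were called, 1.32% higher and 1.47% lower. Guide 2 in OPCs called 4 higher (Fbln2, Col28a1, Fn1 and Col4a1) and 3 lower (Tnr, Tnc and Lama4), where 2.04% were called, 1.33% higher and 0.719% lower. In OLs guide 1 called Fbln2 and Col28a1 higher and Lama4 lower, 3 of 33 genes, where 4.92% were called, 2.39% higher and 2.53% lower. Guide 2 in OLs called Fbln2 and Col28a1 higher and Lama4 and Col27a1 lower, 4 of 33 genes, where 4.44% were called, 2.31% higher and 2.13% lower. Between the 2 guides edgeR called 0 of all genes at either stage, and 7 matrix genes in OPCs and 3 in OLs had an unadjusted p under 0.05. Fbln2 in OPCs was among them, with guide 2 above guide 1 by 0.31 ± 0.05 (adjusted p = 0.116). In the authors' deposited table, which gives control over targeted, Tnr stood at 1.05 in OPCs (adjusted p = 8.09e-06) and 1.20 in OLs (0.0322). The authors' deposited table gives Lama4 1.12, Col28a1 -1.14 and Fbln2 -0.70 in OLs (adjusted p = 0.000103, 1.66e-10 and 0.00564). At an adjusted p of 0.05 the authors' deposited table passes 8 matrix genes in OPCs, the 5 called by edgeR and also Lama1 (0.79, adjusted p = 0.00106), Col12a1 (-2.01, 0.0397) and Fn1 (-0.63, 0.0471). In OLs the authors' deposited table passes 5, of which edgeR called 3. The others are Tnr and Col16a1 (0.70, adjusted p = 0.00531), and Col27a1, which edgeR called, is not past the threshold there (0.0726).

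Genes that act with the matrix were read from 5 lists. Among 28 matrix receptors, 7 of 19 tested were higher and 7 lower in sorted OLs, and 8 of 22 were higher and 6 lower in cultured control OLs. Of all genes, 26.3% were higher and 33.8% lower in sorted OLs and 26.8% and 26.9% in cultured ones, and these shares apply to the stage counts of every list here. In sorted cells Itga1 and Itga5 (lower) and Itgb3 and Itgb4 (higher) passed the filter through 1 stage alone. They add nothing to the receptor counts. Of the genes named from the other lists, Has2, Acan, Hapln2, Chst7 and Fkbp10 passed it that way too. Among the integrin chains, Itga5, of a fibronectin receptor, and Itga6, of laminin receptors, were lower in both sets. Itga5 fell from 6.52 to 0.335 TPM and from 29.6 to 6.67 CPM, and Itga6 from 87.7 to 22.5 TPM and from 273 to 142 CPM (group means). The integrin chains Itgb3 and Itgb4 were called higher in sorted OLs. Cntn1, the contactin to which tenascin-R binds, rose from 92.8 to 291 TPM and from 268 to 889 CPM. After SOX6 targeting Cntn1 fell at both stages: the log2 fold change was -0.71 in OPCs (edgeR, adjusted p = 0.00074) and -0.87 in OLs (0.000197). In all, 4 of 23 receptors tested were higher and 1 lower in targeted OPCs, and 4 of 22 were higher and 1 lower in targeted OLs. Of all genes, 1.95% were higher and 1.63% lower in targeted OPCs, and 3.13% and 3.37% in targeted OLs. The median log2 fold change of the list was -0.0013 and 0.22, against -0.0049 and -0.00078 for all genes.

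Of collagen folding and cross-linking genes, 6 of 16 were lower and 4 higher in sorted OLs, close to the shares of all genes (33.8% and 26.3%), and 8 of 16 were lower and 3 higher in culture (26.9% and 26.8%). Fkbp10, lower in sorted OLs, passed the filter there through 1 stage alone and adds nothing to that count. Serpinh1, the collagen chaperone HSP47, fell from 451 to 159 TPM and from 901 to 469 CPM, and Plod2, a lysyl hydroxylase, from 16.4 to 6.77 TPM and from 33.8 to 15.3 CPM. Targeting changed 1 of 19 of these in OPCs (Colgalt2, higher) and 1 of 17 in OLs (Serpinh1, log2 fold change 0.24). Basement membrane partners showed 3 of 11 tested higher in targeted OPCs (Nid2, Smoc1 and Sparcl1) and 2 of 10 higher in targeted OLs (Smoc1 and Sparcl1), where 1.95% and 3.13% of all genes were higher. Sparcl1 rose from 972 CPM in control OLs to 1675 and 2043 CPM with guides 1 and 2.

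Among hyaluronan genes, 4 of 5 tested were higher and 1 lower in sorted OLs, and 3 of 7 were higher and 2 lower in culture. In sorted cells Has2, Acan and Hapln2, all higher, passed the filter through 1 stage alone and add nothing to that count. Has2, a hyaluronan synthase, rose from OPC to OL in both sets (0.685 to 8.40 TPM and 1.05 to 17.4 CPM) and fell in targeted OLs to 6.94 and 7.88 CPM (log2 fold change -1.23, edgeR, adjusted p = 0.00153). Of 9 genes of that list tested in OLs, 3 were lower after targeting (Has2, Acan and Hmmr), where 3.37% of all genes were lower. In the chondroitin sulfate list, 5 of 17 tested were higher and 6 lower in sorted OLs, and 6 of 20 were higher and 6 lower in culture. These counts were close to the shares of all genes given above. Chst7 in sorted cells (lower) and Csgalnact2 in culture (higher) passed the filter through 1 stage alone and add nothing to them. The sulfotransferases Chst3 and Ust were higher in OLs of both sets (Ust 8.73 to 117 TPM and 40.2 to 102 CPM), and Chst7 was lower (60.8 to 0.705 TPM and 204 to 53.1 CPM). In targeted OLs 3 of 20 were higher (Chpf2, Chst12 and Chsy1) and 2 lower (Chst11 and Ust), and in targeted OPCs 1 of 20 was lower (Chst11). The shares of all genes were 3.13% higher and 3.37% lower in OLs and 1.63% lower in OPCs.

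Over the 8 group means of log2(TPM + 1), the genes most like Tnr among 8587 genes that reached 10 TPM in a group were Plekha6 (Pearson r = 0.998), Ptpre, Fa2h, Neu4 and Sox21, and those most like Tnc were Smpdl3b (r = 0.995), Eif1ad, Rfc1, Itpripl1 and Smchd1. These 8 points share 2 stages and separately normalized tables, and the values are a description.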

How the data were processed

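Poly(A) RNA of mouse OPCs and OLs was sequenced without strand information, per the labels' protocols. Per the submitters' processing notes, Salmon 0.14.1 and DESeq2 (version not given in the sources used here) were used with build mm10. For the SOX6 experiment the authors deposited 1 table of estimated counts per stage, and the values were rounded to whole numbers. The authors deposited TPM for all libraries; the sorted cells were analysed from TPM alone, with 2 duplicated names left out. For the SOX6 comparison, log2 fold changes and adjusted p-values from the authors' deposited tables are also quoted.

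Counts were tested with the two-sided quasi-likelihood F test of edgeR 4.0.16 (R 4.3.3), with TMM scaling and filterByExpr (minimum count 10, minimum total 15), each stage alone, with 1 coefficient per group. Control was subtracted from the average of the 2 guides. For sorted cells limma 3.58.1 was run on log2(TPM + 1), over genes at 1 TPM or more in at least 3 of 6 libraries. Fold changes on that scale understate those of low genes. P-values were adjusted by the Benjamini-Hochberg method over all genes tested, with a threshold of 0.05. Printed CPM are scaled by TMM over all 17 libraries together. SE in edgeR results is the size of the log2 fold change over the square root of F. The pipelines were tested on simulated data. Gene bodies are from GENCODE M21 (GRCm38) and start sites from RefSeq.

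Groups came from the sample titles. The matrix genes, lists and tests were chosen with earlier results of these data known. Named genes were Sox6, Tnc, Tnr and Fbln2, called members (values per library for at most 12 with the largest change at 5 CPM or TPM or more), members at 10 CPM or TPM as examples, and list members. Alternatives were other scalings, filters, pseudocounts, DESeq2 1.42.0, an offset for transcript length, single guides, pooled stages and each library left out.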

Additional observations from a re-analysis of the deposited data

Results flagged for a closer look

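For 4 matrix genes the change from OPC to OL was called in both sets with opposite signs. On the scales used (TPM in sorted cells and CPM in culture), every OL library lay beyond every OPC library in each set. The difference between the sets was not tested, since their tables were normalized separately and the sorted values are on the log2(TPM + 1) scale. Ncan was -2.07 in sorted cells and 0.61 in culture. Fn1 was -0.80 in sorted cells and 1.21 in culture. Lama4 was 0.65 in sorted cells and -0.47 in culture. Col22a1 was 0.47 in sorted cells and -0.69 in culture. In TPM the cultured libraries of Col22a1 overlapped, at 2.54 to 3.71 in control OPCs and 1.35 to 4.97 in control OLs. The sorted OLs were selected for O1, while the cultured OLs were unsorted and lacked thyroid hormone. The calls of Ncan and Fn1 held in all 11 alternatives for sorted cells and all 12 for culture. That of Lama4 was lost in 5 of 11 and 3 of 12, and that of Col22a1 in 7 of 11 and 1 of 12, where an offset for transcript length gave -0.12 (edgeR, adjusted p = 0.849).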

How the results depend on the processing

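Over 703 values of 55 single-gene results under the alternatives, 626 kept their direction and side of the threshold, 70 kept the direction and lost the call, 6 gained one, and 1 changed sign: the stage difference of Tnr was 0.0431 without guide 1 OL library B (-0.32 to 0.04 with each library left out in turn). In OPCs the genes called higher after targeting numbered 7 by DESeq2, 1 with an offset for transcript length and 4 with guide 2 alone (2 in the analysis reported), and those called lower 1 with both stages in 1 fit (3 reported). In OLs the genes called lower numbered 1 with no filter, 4 by DESeq2, 1 with the length offset and 1 with guide 1 alone (2 reported), and those called higher 1 with the length offset (2 reported). The stage comparison in culture had 7 lower with the length offset (11 reported), and DESeq2 called 2 higher in the stage difference (0 reported). With each library left out in turn, counts of higher and lower genes ran from 1 to 4 and 1 to 3 in OPCs, 2 to 8 and 1 to 5 in OLs, 9 to 11 and 7 to 12 for stage in culture, 0 to 5 and 0 to 2 for the stage difference, and 3 to 6 and 8 to 12 in sorted cells. The upper ends for OLs and the stage difference are without guide 1 OL library B. Alternatives in which a gene was no longer tested are not among the 703 values. Col20a1, Col4a3, Fbln2, Lama1, Col28a1 and Col5a3 therefore have 8 alternatives in sorted cells, where the other genes have 11. They dropped out of the test and of the sorted counts when a library of the stage they passed through was left out. The cause of the other changes was not tested. No paired analysis was possible because the columns carry letters and no replicate numbers. Depth limits low genes: 3 counts, taken as the floor, are about 0.2 CPM in these libraries, and the depth of the sorted cells is unknown.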

Other observations

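Some chains were listed at 0 while the chain they assemble with was abundant. Col4a2 was listed at 0 in all 17 libraries of the SOX6 experiment and all 6 sorted libraries, while Col4a1 had group means of 89.9 to 115 CPM. The start sites of these 2 genes lie 21 bases apart on opposite strands. Col5a1 was likewise listed at 0 in all 23 libraries, with Col5a2 at group means of 45.8 to 67.2 CPM, and so was Col13a1. Lamc1, the gamma chain of most laminins, was listed at 0 in 3 of the 17 libraries and had its highest value, 309 estimated counts, in guide 1 OL library B, of 365 over all 17. These zeros are values of the deposited tables, and whether the transcripts were absent was not tested.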
